A study of Homo sapiens with 8 samples.

Results

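A set of 10 AP-1 and immediate early genes was followed across the RNA-seq libraries of MV4-11 cells: the AP-1 subunits FOS, FOSB, JUN, JUNB and JUND, the zinc finger factors EGR1 and EGR2, the phosphatase gene DUSP1, and IER2 and IER3. They were taken by symbol, 10 of the 26364 rows of the deposited table, and all 10 reached at least 1 TPM, a transcript abundance per gene length scaled to a fixed sum per library, in at least 2 libraries. MV4-11 is a human acute myeloid leukemia (AML) line of genotype FLT3-ITD and MLL-AF4, shared by every group: an activating duplication in the receptor kinase FLT3 and a fusion that involves a chromatin regulator. Cells received DMSO, the LSD1 inhibitor TCP at 5 μM, the CDK4/6 inhibitor palbociclib (Palbo) at 0.5 μM, or both drugs (PTCP, called the combination here), with 2 libraries per group and RNA taken at day 4. The labels give 4 days of exposure for every drug, whereas the study's methods describe 1 day of the CDK6 inhibitor alone followed by 3 days of both, so the length of TCP exposure cannot be told from these sources. A single cell line gives no view of differences between patients.

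Immediate early genes are transcribed within minutes of a growth factor, cytokine or stress signal without new protein synthesis, mostly through MAP kinases acting on serum response factor and CREB at their promoters. FOS proteins pair with JUN proteins to form AP-1, whereas JUN proteins also pair with each other, and the make-up of the pair sets which genes it acts on. In the myeloid lineage, AP-1 and EGR factors are known from monocyte and macrophage differentiation, and mutant FLT3 is a constant source of MAP kinase signalling. With RNA taken after 4 days, the first response to the drugs was not sampled. Whether the levels were steady by then was not tested.

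Under the combination, JUN rose 3.22-fold in mean TPM whereas EGR1, FOSB and IER2 fell, EGR1 to 0.209 of its control mean. JUNB, the most stable member, stayed within a 1.37-fold range over all 8 libraries. JUN and EGR1 crossed in rank: among the 14151 genes tested, the mean of JUN moved from percentile 41.3 in DMSO to 76.1 in the combination, and that of EGR1 from 69.2 to 33.8. Thus 4 of the 10 passed the thresholds in the combination, where 13.7% of all genes tested did. Under palbociclib 1 of 10 passed, IER2, which is close to the 9.1% of all genes.

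The upstream sequences of the 4 members that passed in the combination are shown with their matches to 5 motifs. Each is the 250 bases before the RefSeq start site on GRCh38.p14, a later build than the hg19 used for the counts, and capitals mark matches to the 5 motifs searched on both strands: the CArG box bound by serum response factor, TGACNTCA (CREB and JUN-ATF dimers), TGANTCA (AP-1), GCGNGGGCG (EGR factors) and TATAAA.
EGR1, chr5:138465229-138465478, plus strand: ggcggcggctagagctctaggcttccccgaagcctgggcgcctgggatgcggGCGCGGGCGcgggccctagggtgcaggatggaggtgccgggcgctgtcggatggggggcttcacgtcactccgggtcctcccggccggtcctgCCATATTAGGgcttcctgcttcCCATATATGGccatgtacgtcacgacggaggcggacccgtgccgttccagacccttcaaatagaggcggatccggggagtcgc
FOSB, chr19:45467746-45467995, plus strand: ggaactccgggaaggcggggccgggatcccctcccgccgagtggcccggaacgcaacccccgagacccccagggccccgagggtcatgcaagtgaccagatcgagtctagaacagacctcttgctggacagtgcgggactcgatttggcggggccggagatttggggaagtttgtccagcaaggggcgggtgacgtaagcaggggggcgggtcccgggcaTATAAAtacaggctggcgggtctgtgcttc
IER2, chr19:13150161-13150410, plus strand: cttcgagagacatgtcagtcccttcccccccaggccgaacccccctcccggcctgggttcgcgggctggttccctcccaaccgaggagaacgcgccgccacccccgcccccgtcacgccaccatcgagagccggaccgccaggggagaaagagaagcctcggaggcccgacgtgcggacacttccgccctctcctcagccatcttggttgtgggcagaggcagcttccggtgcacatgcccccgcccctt
JUN, chr1:58784048-58784297, minus strand: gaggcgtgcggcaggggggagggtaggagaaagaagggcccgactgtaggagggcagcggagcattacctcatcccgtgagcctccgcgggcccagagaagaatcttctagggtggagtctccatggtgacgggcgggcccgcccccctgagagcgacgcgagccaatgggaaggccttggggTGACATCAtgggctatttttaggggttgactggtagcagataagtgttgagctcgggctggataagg
The EGR1 window held 2 CArG boxes, starting 105 and 83 bases before the start site, and a GCGNGGGCG match 198 bases before it. The JUN window held TGACNTCA 67 bases before the start. Of the 5 motifs, FOSB matched only TATAAA, and IER2 matched none. Of the members, 9 had an entry (11 windows), and among all 35116 windows of this length a CArG box was present in 1.16%, TGACNTCA in 6.87%, TGANTCA in 6.57%, GCGNGGGCG in 8.41% and TATAAA in 10.7%. Over the members with an entry, the CArG box was found for 2 (EGR1 and EGR2), TGACNTCA for 3 (JUN, JUND and DUSP1), TATAAA for 4 (FOS, FOSB, JUNB and DUSP1) and TGANTCA for 0. Only exact matches within these 250 bases were searched. A window without a match can therefore still hold a variant of a motif, and the gene can hold one further away. These letters describe the windows and say nothing on what was bound in these cells.

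The members are also short genes, which the choice by symbol did not use. The canonical transcript of a member spans a median of 3330 bases with 2 exons in GRCh37, against 25696 bases and 9 exons over 11182 protein-coding genes tested. The longest member, FOSB, spans 7184 bases, and 16.7% of those protein-coding genes span no more than that. JUN, JUNB and JUND have a single exon.

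Fold changes below are on the log2(TPM + 1) scale, fitted with limma over all 8 libraries, and a gene passed at an absolute log2 fold change of 1 or more together with a Benjamini-Hochberg adjusted p below 0.01. The labels do not say whether the libraries of a group came from separate cultures, so these p-values measure the spread between these libraries, which may be technical. With 2 libraries against 2, an exact two-sided permutation test of a single gene cannot go below 0.333. TPM keep no record of sequencing depth, which is unknown, and in bulk samples fewer cells of a type and less RNA per cell cannot be told apart. Over all genes tested the median shift was -0.04 under TCP, -0.16 under palbociclib and -0.22 in the combination (log2), which median-ratio scaling moved to 0 for the last 2, and a member's value can be read against that shift.

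**Figure D1:**
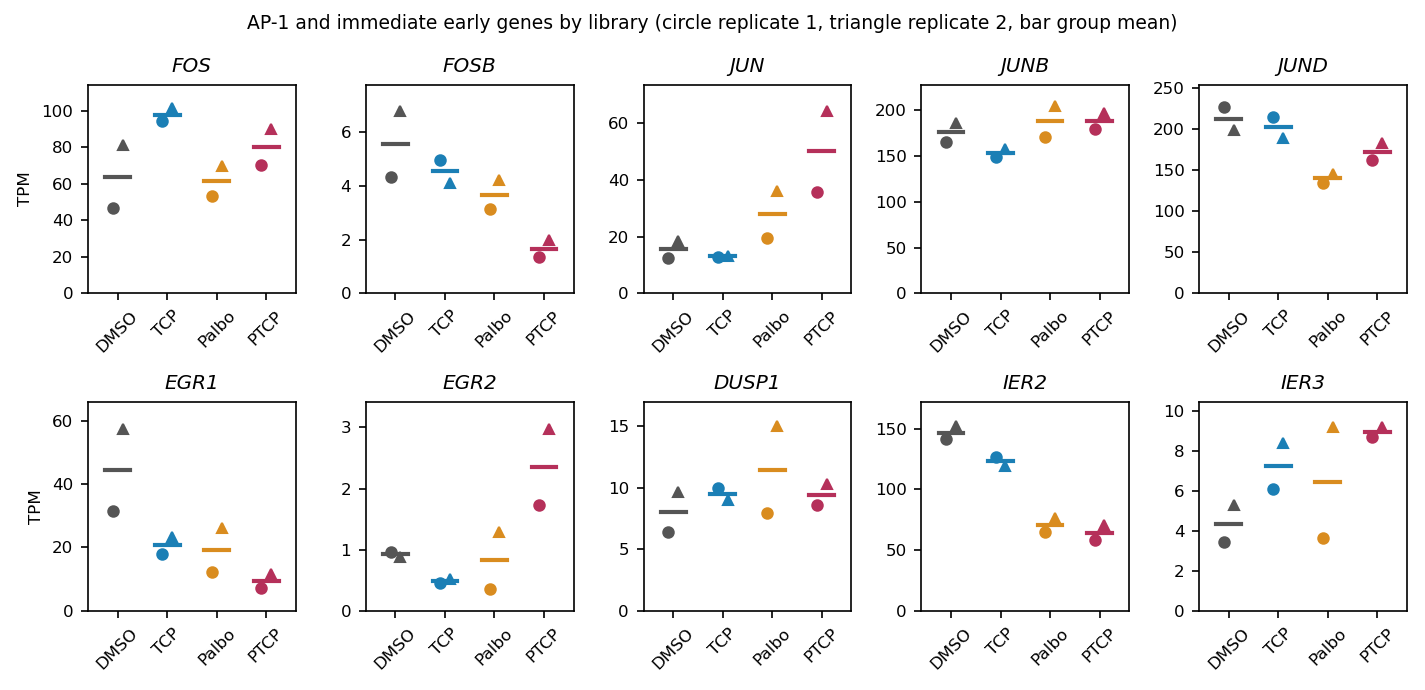
TPM of each member in the 8 libraries (vertical axes from 0, in TPM, with a range of their own), with circles for replicate 1, triangles for replicate 2 and bars for the mean of 2. EGR1, FOSB and IER2 have their lowest means in the combination (PTCP) and JUN its highest, and JUNB stays between 149 and 205 TPM.

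Of FOS and FOSB, whose proteins pair with JUN proteins to form AP-1, FOSB passed the thresholds in the combination and FOS passed in no comparison. FOS (chromosome 14, 75745529 to 75748933, plus strand, GRCh37) measured 46.9 and 81.1 TPM in DMSO, 94.4 and 101 under TCP, 53.5 and 70.0 under palbociclib and 70.4 and 90.1 in the combination, replicate 1 first here and below. Both TCP libraries lay above both DMSO libraries, and the other groups overlapped the wide DMSO range. The log2 fold change was 0.65 under TCP (standard error 0.26, adjusted p = 0.525), -0.01 under palbociclib (95% interval -0.63 to 0.60) and 0.36 in the combination (-0.25 to 0.98), none of which passed.

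FOSB, a FOS relative induced by the same kinds of signal, was below FOS in every library. FOSB (chromosome 19, 45971253 to 45978437, plus strand) measured 4.35 and 6.79 TPM in DMSO, 4.98 and 4.10 under TCP, 3.13 and 4.21 under palbociclib, and 1.35 and 1.98 in the combination. The combination libraries lay below all 6 others. FOSB fell in the combination with a log2 fold change of -1.29 (standard error 0.23, limma adjusted p = 0.00359), and from TCP to the combination with -1.06 (adjusted p = 0.00881). From palbociclib to the combination the log2 fold change was -0.81 (95% interval -1.37 to -0.25, adjusted p = 0.134), which did not pass. The call against DMSO was lost with no filter on low values (adjusted p = 0.0104), with only the groups compared (0.0112), and without DMSO replicate 2 (-1.01, adjusted p = 0.0219), combination replicate 1 (-1.12, 0.0256) or combination replicate 2 (-1.46, 0.0119). The call against TCP was lost with no filter (0.0222), only the groups compared (0.0157) or median-ratio scaling (-0.92, 0.0177), and without either TCP library (-0.95 and -1.18), either palbociclib library (-1.06 each, adjusted p = 0.0135) or either combination library (-0.89 and -1.23).

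FOSB shares part of its locus with ERCC1, a DNA repair gene on the other strand, and the strand setting of the counting is not given in the sources used here, though the library kit was a stranded one. ERCC1 measured 56.0 and 56.3 TPM in DMSO, 50.7 and 53.0 under TCP, 33.3 and 31.3 under palbociclib and 29.2 and 30.5 in the combination. ERCC1 was thus lower under palbociclib too, where FOSB did not pass, and its part in the FOSB values was not tested.

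The JUN proteins differ in what they do, JUN being the strong activator that also drives its own gene, whereas JUNB and JUND are weaker activators that can oppose it. JUN (chromosome 1, 59242517 to 59249720, minus strand) measured 12.6 and 18.5 TPM in DMSO, 12.8 and 13.3 under TCP, 19.5 and 36.2 under palbociclib, and 35.8 and 64.3 in the combination. Both palbociclib libraries were above DMSO and TCP, and the combination libraries were above every DMSO and TCP library but overlapped palbociclib. JUN rose in the combination with a log2 fold change of 1.59 (standard error 0.36, limma adjusted p = 0.0086) and from TCP to the combination with 1.80 (standard error 0.36, adjusted p = 0.00557). Palbociclib alone gave 0.77 (95% interval -0.08 to 1.61, adjusted p = 0.122), TCP alone -0.21 (-1.06 to 0.63), and the step from palbociclib to the combination 0.83 (-0.02 to 1.67, adjusted p = 0.295).

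The JUN call was close to the threshold. Against DMSO it was lost with no filter on low values (adjusted p = 0.0227), with only the groups compared (0.0143) and without a variance trend (0.013). It was also lost without DMSO replicate 1 (1.33, adjusted p = 0.0525), DMSO replicate 2 (1.86, 0.0184), either TCP library (1.59, 0.013 each) or combination replicate 2 (1.18, 0.0515). Against TCP it was lost with no filter (0.0159), with only the groups compared (0.0104), and without TCP replicate 1 (1.77, 0.0238), TCP replicate 2 (1.83, 0.0205) or combination replicate 2 (1.39, 0.034). The direction held in each of these.

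JUNB and JUND were the most abundant members in every library. JUNB (chromosome 19, 12902300 to 12904129, plus strand) measured 166 and 187 TPM in DMSO, 149 and 158 under TCP, 171 and 205 under palbociclib and 180 and 197 in the combination. Only the TCP libraries lay apart from DMSO, slightly below, with a log2 fold change of -0.19 (95% interval -0.45 to 0.07). In the combination it was 0.10 (-0.16 to 0.36), an interval that excludes a change of the size seen for JUN. JUNB overlaps HOOK2, which lies on the other strand and was at 15.1 to 22.0 TPM.

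JUND, usually the constitutive member of the family, measured 226 and 199 TPM in DMSO, 214 and 189 under TCP, 134 and 146 under palbociclib and 162 and 183 in the combination (chromosome 19, 18390504 to 18392432, minus strand). Both palbociclib libraries were below all others, and the combination libraries lay between them and DMSO. The log2 fold change under palbociclib was -0.60 (standard error 0.11, limma adjusted p = 0.00436), past the p threshold and not the fold threshold, and -0.42 after median-ratio scaling. In the combination it was -0.30 (adjusted p = 0.0491), and from palbociclib to the combination 0.30 (95% interval 0.04 to 0.55, adjusted p = 0.217).

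The share of JUN among JUN, JUNB and JUND transcripts, in TPM and so per length, was 3.10% and 4.58% in DMSO, 3.40% and 3.70% under TCP, 6.0% and 9.37% under palbociclib, and 9.48% and 14.5% in the combination. The combination shares were the highest of all, with palbociclib between them and the other groups. The summed TPM of the 3 genes ranged from 325 to 445. On the FOS side, FOSL2, a FOS relative that was not a member, made up 58.3% to 69.8% of the summed TPM of FOS, FOSB, FOSL1 and FOSL2 in every library.

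**Figure D2:**
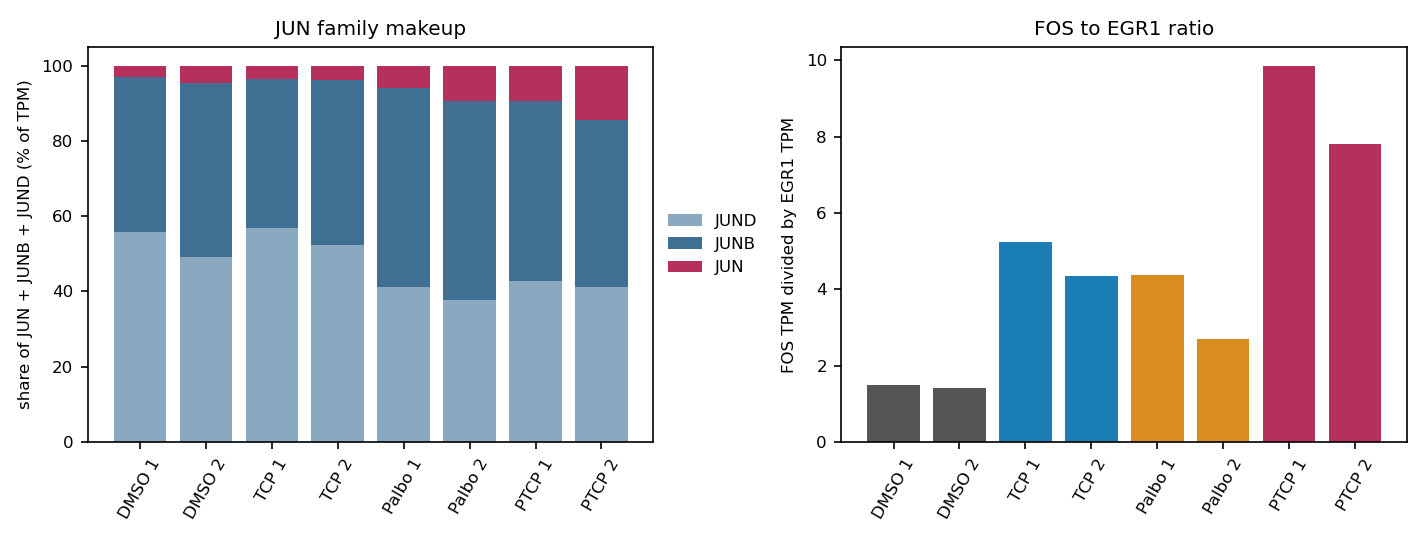
Left, the share of JUN, JUNB and JUND in their summed TPM for each library (%); right, the TPM of FOS divided by that of EGR1 in each library. JUN takes 9.48% and 14.5% in the 2 combination libraries (PTCP) against 3.10% and 4.58% in DMSO, and the FOS to EGR1 ratio runs from 1.41 to 9.85.

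EGR1, a growth-factor-induced zinc finger factor that promotes monocytic maturation, had the largest fall of any member. EGR1 (chromosome 5, 137801168 to 137804992, plus strand) measured 31.7 and 57.5 TPM in DMSO, 18.0 and 23.3 under TCP, 12.2 and 26.0 under palbociclib, and 7.15 and 11.5 in the combination. Every treated library was below both DMSO libraries, and the combination libraries were below all others. EGR1 fell in the combination with a log2 fold change of -2.11 (standard error 0.41, limma adjusted p = 0.00477). It was -1.03 under TCP (95% interval -2.00 to -0.05, adjusted p = 0.538) and -1.21 under palbociclib (-2.19 to -0.24, adjusted p = 0.0488), neither of which passed. With the replicate number as a block, palbociclib also passed (adjusted p = 0.0013), as did the combination against TCP (-1.09, adjusted p = 0.00162 against 0.0631 without the block).

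The EGR1 call in the combination was lost with no filter on low values (adjusted p = 0.0141), without DMSO replicate 2 (-1.69, adjusted p = 0.029), combination replicate 1 (-1.80, 0.0318) or combination replicate 2 (-2.42, 0.0134), and by a small margin after median-ratio scaling (-1.88, 0.0108). On the log scale the combination differed from the sum of the single drugs by 0.12 (95% interval -1.26 to 1.5), so a departure from additivity was not detectable within that wide interval.

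EGR2, a related factor of the monocyte and macrophage lineage, was at low levels, and its highest values were those of the combination. EGR2 (chromosome 10, 64571756 to 64578927, minus strand) measured 0.966 and 0.882 TPM in DMSO, 0.447 and 0.521 under TCP, 0.36 and 1.29 under palbociclib, and 1.73 and 2.98 in the combination. The combination libraries were above all others and the TCP libraries below both DMSO libraries, whereas the palbociclib libraries fell on either side of both. EGR2 overlaps an unnamed gene on the same strand, whose part in these values was not tested. The log2 fold change was 0.78 in the combination (standard error 0.30, adjusted p = 0.0616) and 1.15 from TCP to the combination (adjusted p = 0.0162), neither past the threshold, although the latter passed with the replicate block (adjusted p = 0.0077) and without either palbociclib library (0.00929 and 0.00969). On the log scale the combination exceeded the summed drugs by the most of any member, 1.27 (95% interval 0.28 to 2.27), with an unadjusted p of 0.0189 and an adjusted p of 0.645.

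**Figure D3:**
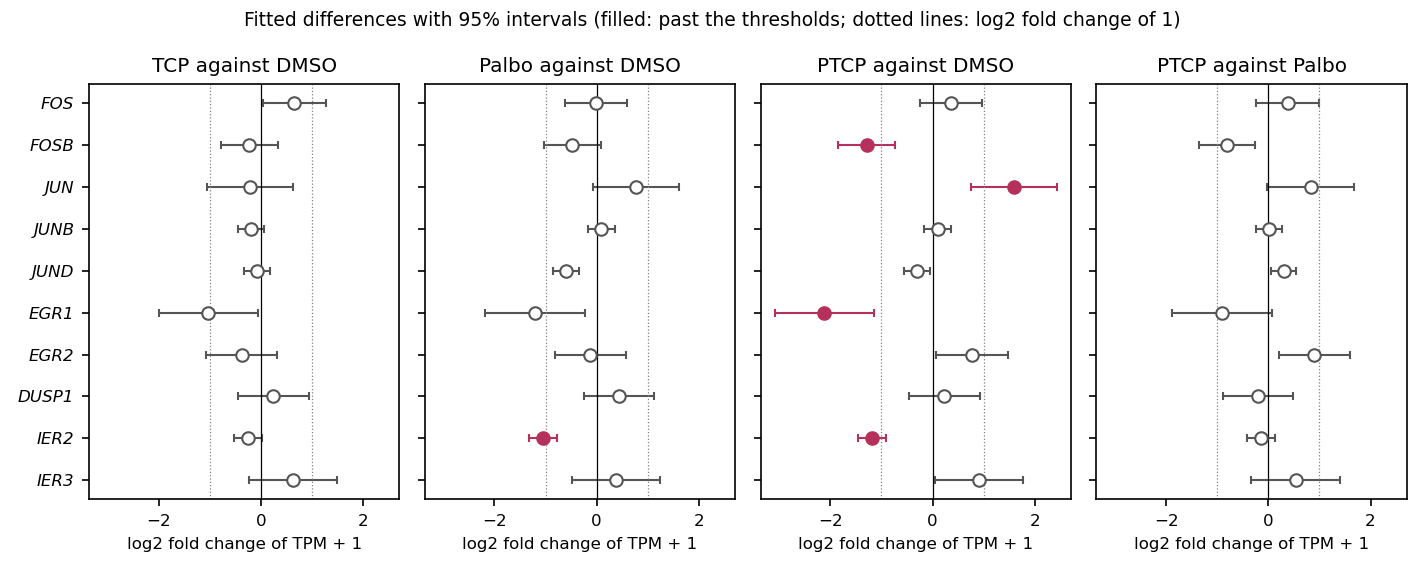
Fitted log2 fold changes of TPM + 1 (horizontal axes) for each member in 4 comparisons, with 95% intervals as bars, filled points past both thresholds and dotted lines at a log2 fold change of 1 in either direction. JUN lies to the right and EGR1, FOSB and IER2 to the left in the combination (PTCP), and IER2 alone is filled under palbociclib.

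IER2, a small nuclear protein induced by growth factors, gave the most regular change. IER2 (chromosome 19, 13261225 to 13265725, plus strand) measured 142 and 152 TPM in DMSO, 127 and 119 under TCP, 65.3 and 76.4 under palbociclib, and 58.1 and 70.4 in the combination. The TCP libraries were slightly below DMSO, and the palbociclib and combination libraries lay far below both and overlapped each other. The IER2 locus overlaps unnamed genes on the other strand, whose part in these values was not tested. IER2 fell under palbociclib with a log2 fold change of -1.05 (standard error 0.12, limma adjusted p = 0.000698) and in the combination with -1.19 (standard error 0.12, adjusted p = 0.000271). From palbociclib to the combination it was -0.14 (95% interval -0.42 to 0.14). Because the palbociclib value sits near the fold threshold, that call was lost without DMSO replicate 2 (adjusted p = 0.00743) or palbociclib replicate 1 (-0.94, 0.00547) and under both scalings (-0.94 and -0.87), with the adjusted p below 0.01 each time. The combination call held with every library left out and was lost only after median-ratio scaling (-0.94, adjusted p = 0.00116).

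DUSP1, the nuclear phosphatase that switches off p38, JNK and ERK, did not pass in any comparison. DUSP1 (chromosome 5, 172195099 to 172198198, minus strand) measured 6.37 and 9.65 TPM in DMSO, 9.99 and 9.03 under TCP, 7.93 and 15 under palbociclib and 8.55 and 10.3 in the combination. The DUSP1 locus overlaps an unnamed gene on the other strand, whose part in these values was not tested. Every group overlapped DMSO, and palbociclib replicate 2 was the highest library. The log2 fold change was 0.43 under palbociclib (95% interval -0.26 to 1.1) and 0.01 without that library.

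IER3, a stress-induced survival gene that prolongs ERK signalling, measured 3.43 and 5.29 TPM in DMSO, 6.09 and 8.37 under TCP, 3.64 and 9.21 under palbociclib and 8.69 and 9.21 in the combination (chromosome 6, 30710976 to 30712325, minus strand). The TCP and combination libraries were above both DMSO libraries, whereas the palbociclib libraries fell on either side. The log2 fold change was 0.91 in the combination (95% interval 0.05 to 1.78, adjusted p = 0.0716) and 0.63 under TCP (-0.24 to 1.49). Under palbociclib it was 0.38, and -0.19 without palbociclib replicate 2. IER3 overlaps IER3-AS1 and HCG20, both on the other strand. With the strand setting of the counting not given, whether reads were shared between them cannot be told.

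By comparison, no member passed under TCP (limma, 2 at an unadjusted p below 0.05, FOS and EGR1), where 0.0565% of all genes tested passed. Palbociclib gave 1 of 10 against 9.1% of all genes, and 2 of 10 with the replicate block. The combination gave 4 of 10 against 13.7% of all genes, 1 higher and 3 lower. The combination against TCP gave 2 of 10 against 12.2%, and 4 of 10 with the block. The combination against palbociclib gave 0 of 10 (3 at an unadjusted p below 0.05, EGR2, FOSB and JUND) against 0.502%, and the interaction of the drugs 0 of 10 (2 unadjusted, EGR2 and JUND) against 0% of all genes. The members shared no direction: their median log2 fold change was -0.20 under TCP, -0.07 under palbociclib and 0.17 in the combination, beside -0.04, -0.16 and -0.22 over all genes tested. Over all 14151 genes tested, 1241 had an unadjusted limma p below 0.05 under TCP, 7547 under palbociclib and 8381 in the combination. From palbociclib to the combination 2472 genes did, and for the interaction 904. The comparisons against DMSO share their DMSO libraries.

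Ratios of members within a library separated the groups. They were chosen after the values were seen and carry no test. The TPM of JUN divided by that of EGR1 was 0.396 and 0.322 in DMSO, 0.71 and 0.573 under TCP, 1.6 and 1.39 under palbociclib, and 5.01 and 5.58 in the combination. No group overlapped another. FOS divided by EGR1 was 1.48 and 1.41 in DMSO, 5.25 and 4.35 under TCP, 4.38 and 2.69 under palbociclib, and 9.85 and 7.82 in the combination, with TCP and palbociclib overlapping.

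Part of the spread between the libraries of a group ran in the same direction in each. FOS, JUN, JUNB, EGR1 and IER3, 5 of the 10 members, were higher in replicate 2 than in replicate 1 in all 4 groups, which 14.9% of the genes tested were. The median member was higher in replicate 2 by 0.52 in DMSO, 0.06 under TCP, 0.57 under palbociclib and 0.31 in the combination (log2 of TPM + 1), whereas that of all genes tested was 0, -0.05, -0.03 and -0.01. EGR1 was higher in replicate 2 by 0.84, 0.35, 1.03 and 0.62 in the same order, a replicate coefficient of 0.71 (standard error 0.11, limma adjusted p = 0.0475 in the blocked fit). What the replicate numbers share is not stated.

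Transcripts of stromal cells also varied between the libraries. The study's methods describe co-culture of its AML lines on HS-5 stromal cells, and the labels of these libraries name none. The summed TPM of 13 stromal markers ranged from 12.9 to 37.7 in 7 libraries and was 112 in palbociclib replicate 2, with POSTN at 0 throughout, 8 of the 13 higher in replicate 2 in all 4 groups, and 10 highest in palbociclib replicate 2. COL1A1, COL1A2 and COL3A1 together measured 0.342 and 2.99 TPM in DMSO, 0.411 and 3.41 under TCP, 2.47 and 55.1 under palbociclib and 4.17 and 8.33 in the combination. DUSP1, JUNB and IER3 were also highest in palbociclib replicate 2, whereas JUN and EGR2 were highest in combination replicate 2. Without palbociclib replicate 2, the log2 fold change of JUN under palbociclib was 0.34 in place of 0.77 and that of EGR1 -1.73 in place of -1.21, while IER2 remained past the thresholds at -1.16. The part of stromal RNA in these values was not tested. The 11 heat shock genes listed summed to 6099 and 7158 TPM in DMSO, 6171 and 7727 under TCP, 5183 and 5198 under palbociclib and 5351 and 5340 in the combination. HSP90AB1, HSPA8 and HSP90AA1 had the highest values in that sum (DMSO means 2125, 1916 and 1053 TPM). Under palbociclib 1 of the 11 was higher and 10 lower, and in the combination 3 and 8. HSPA1A was higher in both, by 0.77 (limma adjusted p = 0.0212) and 0.97 (0.00669) in log2. Against DMSO 0 of 11 passed, beside 0.0565%, 9.1% and 13.7% of all genes under TCP, palbociclib and the combination. At an unadjusted p below 0.05 were 0, 7 and 6, beside 1241, 7547 and 8381 of all 14151 genes.

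**Figure D4:**
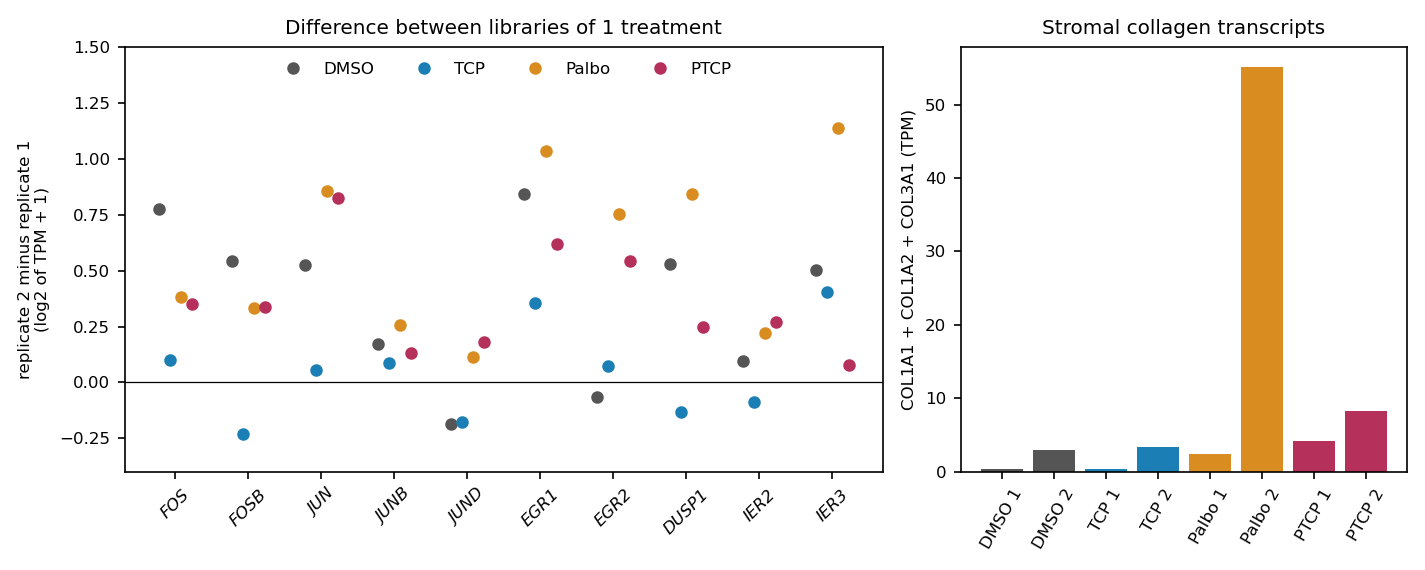
Left, replicate 2 minus replicate 1 within each group for every member (log2 of TPM + 1); right, summed TPM of COL1A1, COL1A2 and COL3A1 in each library. FOS, JUN, JUNB, EGR1 and IER3 lie above 0 in all 4 groups, and collagen transcripts stand at 55.1 TPM in palbociclib replicate 2.

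Markers of myeloid and blood cells stayed present, though not all at high levels. CD33 and PTPRC, which mark myeloid and all blood cells, were at 103 to 141 TPM and 27.8 to 71.5 TPM, and the stem cell marker CD34 did not exceed 0.0387 TPM. Of 9 myeloid blast markers tested, 0 passed under TCP (4 at an unadjusted p below 0.05). CD14 and LYZ, of mature monocytes, rose and FLT3 fell under palbociclib and in the combination, where SPI1 and ITGAM rose too. The shift of MPO in log2 was -0.74 with TCP (limma adjusted p = 0.0725), 0.85 with palbociclib (0.00159) and 0.65 with both (0.00365). The last 2 were past the p threshold and not the fold threshold. From TCP to the combination MPO, CD14 and LYZ passed as higher and FLT3 as lower. Without palbociclib replicate 2, FLT3 no longer passed under palbociclib.

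Among 9 other AP-1 subunits and partners, 3 fell both under palbociclib and in the combination, and 0 under TCP. The shares over all genes tested were 9.1%, 13.7% and 0.0565%, in that order. All 3 belong to the ATF and BATF branch that pairs with JUN. ATF3, a stress-induced repressor, measured 22.9 and 15.9 TPM in DMSO, 18.2 and 7.92 under TCP, 2.79 and 4.52 under palbociclib and 3.55 and 5.19 in the combination. BATF3 went from 6.32 and 5.07 TPM in DMSO to 0.419 and 0.727 under palbociclib and 0.665 and 0.652 in the combination. JDP2, a dimerization partner that represses AP-1, went from 22.6 and 18.0 TPM to 3.66 and 3.69 under palbociclib and 4.53 and 4.41 in the combination. Their log2 fold changes in the combination were -1.92 (standard error 0.39), -2.01 (0.24) and -1.95 (0.20), with adjusted p-values of 0.0056, 0.000586 and 0.000298 (limma). Without palbociclib replicate 2, ATF3 no longer passed under palbociclib, whereas all 3 still passed in the combination. The median over the list was -0.42 under palbociclib and -0.57 in the combination.

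Of 30 other immediate early genes, 26 were tested, and 3 rose and 1 fell under palbociclib and in the combination, with EGR4, NR4A3, ARC and NPAS4 too low to test. Over all genes tested, 9.1% passed under palbociclib and 13.7% in the combination, so this count lies near that share in the combination. BTG2, an antiproliferative p53 target, measured 17.0 and 17.7 TPM in DMSO, 53.9 and 65.0 under palbociclib and 99.8 and 93.5 in the combination (log2 fold change 2.41, standard error 0.12, adjusted p = 2.88e-05). KLF4, a monocytic differentiation factor, measured 7.26 and 4.27 TPM in DMSO, 12.2 and 15.6 under palbociclib and 31.5 and 30.5 in the combination (2.28, standard error 0.25, adjusted p = 0.000382). ID1, an inhibitor of helix-loop-helix factors, rose by 1.77 under palbociclib and 1.29 in the combination on the log2 scale, and NR4A1, an orphan nuclear receptor, had log2 fold changes of -1.16 and -1.27. The median over the list was -0.05 and 0.18, and without palbociclib replicate 2 only BTG2 passed under palbociclib while all 4 passed in the combination. None passed under TCP (4 at an unadjusted p below 0.05).

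Of 18 MAP kinase phosphatases and feedback inhibitors, genes that read out and restrain this signalling, 13 were tested, and 2 fell under palbociclib, 3 in the combination and 0 under TCP (1 unadjusted). All genes tested passed at 9.1%, 13.7% and 0.0565%, in that order. ETV4, an ETS factor induced by ERK, measured 30.3 and 28.2 TPM in DMSO, 27.0 and 28.2 under TCP, 4.40 and 2.91 under palbociclib and 2.84 and 2.90 in the combination (log2 fold change -2.97, standard error 0.16, adjusted p = 3.19e-05). ETV5 fell under palbociclib (-1.31). In the combination its log2 fold change was -0.60 (limma adjusted p = 0.00992), past the p threshold and not the fold threshold. DUSP2 and DUSP7 fell in the combination, DUSP2 by a log2 fold change of -1.10 and DUSP7 from 97.2 and 88.3 TPM in DMSO to 47.5 and 43.9. In the combination PHLDA1 had a log2 fold change of 1.25 (adjusted p = 0.0143) and DUSP4 one of 0.90 (0.00857), both short of a threshold. PHLDA1 passed there with the replicate block, which gave 4 lower and 1 higher, and without palbociclib replicate 2, which gave 3 lower and 1 higher. DUSP6, the ERK phosphatase, had a log2 fold change of -0.36 in the combination (adjusted p = 0.122). Of 21 upstream kinases and serum response factors, 0 passed in any comparison, with 13 at an unadjusted limma p below 0.05 under palbociclib and 12 in the combination. Over all 14151 genes tested, 7547 and 8381 had such a p, in the same order.

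Genes known as targets of AP-1 or EGR1 that passed were higher, none lower. Of 18 listed, 17 were tested, and 3 rose under palbociclib, 8 in the combination and 0 under TCP (6 unadjusted, and VIM passed there with the block). Beside these stand 9.1%, 13.7% and 0.0565% of all genes tested, in the same order. THBS1, a secreted matrix protein, measured 34.7 and 36.3 TPM in DMSO, 48.6 and 51.1 under TCP, 727 and 942 under palbociclib and 1261 and 1454 in the combination, a log2 fold change of 5.21 (standard error 0.13, limma adjusted p = 3.4e-06). HMOX1, which breaks down heme, rose by 2.99 and PLAUR, the urokinase receptor, by 1.90 in the combination on the log2 scale. MMP9 (2.32), VIM (1.42) and TIMP1 (1.18) also rose, followed by ICAM1 and PLAU. VIM, the intermediate filament of mesenchymal and mature myeloid cells, was at 292 and 340 TPM in DMSO, 703 and 699 under TCP, 288 and 364 under palbociclib and 834 and 859 in the combination. From palbociclib to the combination 12 of the 17 were higher, 9 of the list at an unadjusted p below 0.05, and only VIM passed (1.38, adjusted p = 0.0041), a call lost without palbociclib replicate 2. Over all 14151 genes tested, 4877 were higher from palbociclib to the combination, 2472 had an unadjusted limma p below 0.05 and 0.502% passed. The list's median against DMSO was 0.77 under palbociclib and 1.14 in the combination. All 8 passed in the combination without palbociclib replicate 2, and under palbociclib TIMP1 was then lost.

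**Figure D5:**
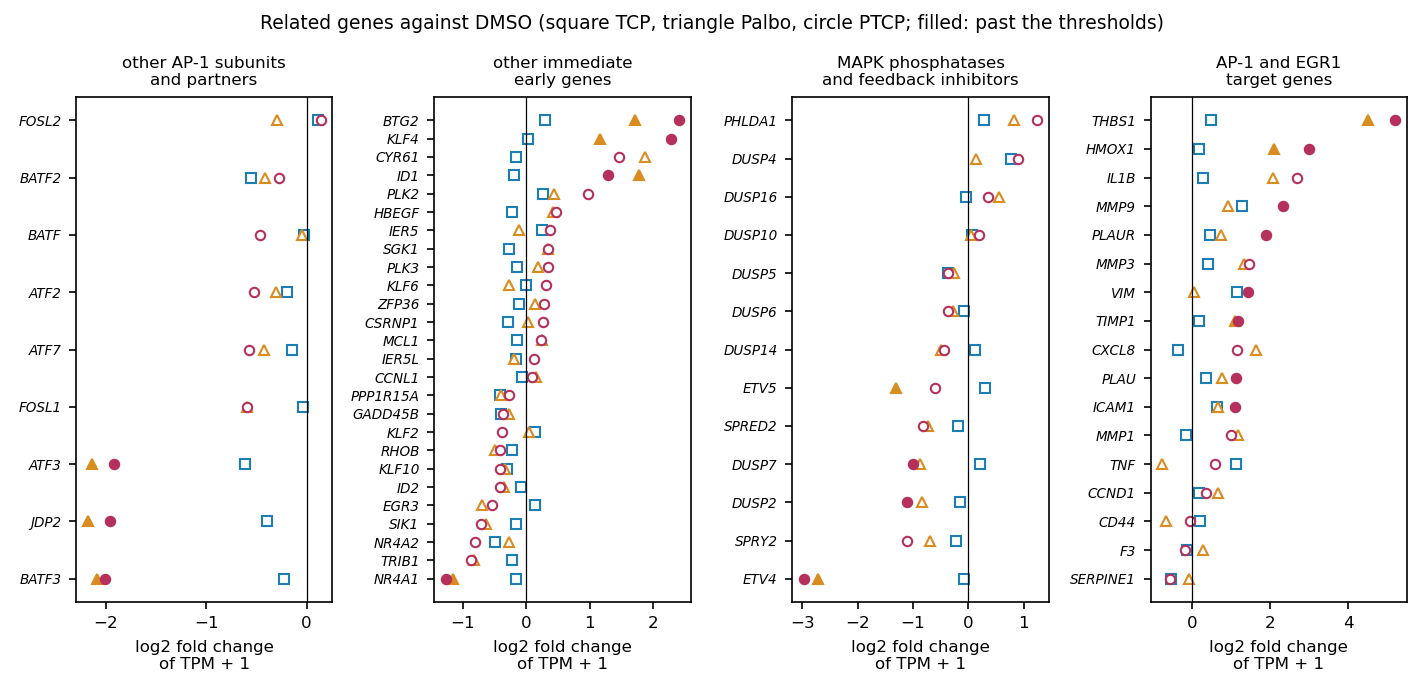
Log2 fold changes of TPM + 1 against DMSO for every tested gene of 4 related lists (squares TCP, triangles palbociclib, circles the combination, filled where both thresholds were passed). ATF3, BATF3 and JDP2 are filled to the left, and BTG2, KLF4 and THBS1 to the right, under palbociclib and in the combination.

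Over the 8 libraries, which share 4 treatments, the genes most like each of 4 members were sought among 11100 genes with a mean of at least 5 TPM, by Pearson's r of log2(TPM + 1) and as a description. JUN was most like ZNF865 (r = 0.980), ZFP36 (0.978), itself an immediate early gene that encodes an mRNA decay factor, and DNM2 (0.976). ZFP36 ran from 146 TPM in TCP replicate 2 to 205 in combination replicate 2, a far narrower range than that of JUN. EGR1 was most like PDZD8 (0.983), CAMSAP1 (0.978) and the corepressor gene BCOR (0.976), which measured 48.4 and 54.9 TPM in DMSO and 32.8 and 37.2 in the combination. FOS was most like C17orf67 (0.986), PHF10 (0.951) and C19orf60 (0.917). DUSP1 was most like the collagen gene COL6A1 (0.936), MIR6738 (0.910) and EMP1 (0.909), and COL6A1 stood at 38.5 TPM in palbociclib replicate 2 against 9.70 to 18.8 TPM in the other 7 libraries.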

How the data were processed

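RNA was measured in 8 libraries of MV4-11 cells, 2 per group, grouped by the treatment and replicate in the labels. The authors aligned reads to hg19 (GRCh37) using subread-align and summarised them by gene (featureCounts 1.6.4), and deposited TPM, which sum to 1e+06 in each library and keep no record of depth. The gene annotation, gene lengths and strand setting are not given in the sources used here. Submitters' processing notes also name SAMtools 1.9 and DESeq2 1.26.0. Since the deposited TPM are not counts, log2(TPM + 1) was fitted with limma 3.58.1 in R 4.3.3, with a mean-variance trend and 1 coefficient per group, 4 residual degrees of freedom, and Benjamini-Hochberg adjustment over the 14151 of 26364 genes that reached 1 TPM in 2 or more libraries. The thresholds were an absolute log2 fold change of 1 and an adjusted p of 0.01. The script was tested on simulated data.

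Alternatives were a pseudocount of 0.1, no filter, quantile normalization, a mean of at least 5 TPM, median-ratio scaling, the replicate number as a block, only the groups compared, no trend, an adjusted p below 0.05, and each library left out. The counts of the related lists without palbociclib replicate 2 were added after seeing the data. Across genes, libraries of the same number deviated together from the means of their groups in all 6 pairs of groups (r = 0.169 to 0.491). In the blocked fit, 191 of 14151 genes had a replicate term at an adjusted p below 0.05 (limma). No label states that the numbers pair the libraries. The fit behind the reported values has no block, and the blocked fit is an alternative, given where it changes a call.

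The members and lists were chosen with earlier results of these data known. Named were all members, at most 6 genes per list by the largest change among those that passed against DMSO or between the combination and palbociclib, and the 3 genes most like FOS, JUN, EGR1 and DUSP1. FOSL2, ERCC1, HOOK2, DUSP4, DUSP6, PHLDA1, ICAM1, PLAU, CD33, PTPRC, CD34, KIT, MPO, HSPA1A, HSPA8, HSP90AA1, HSP90AB1 and the collagens were named outside that rule. Gene positions are from GENCODE on GRCh37 and upstream sequences from RefSeq on GRCh38.p14.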

Additional observations from a re-analysis of the deposited data

How the results depend on the processing

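The member counts against DMSO in the combination (4) fell to 1 with no filter on low values, to 2 with median-ratio scaling, to 2 with only the groups compared and to 3 with no trend or a mean of at least 5 TPM, and ranged from 1 to 4 with a library left out. Under palbociclib (1) the count was 0 with quantile normalization or median-ratio scaling, 2 with the replicate block or an adjusted p below 0.05, and 0 to 1 with a library left out. From TCP to the combination (2) it was 0 with no filter or only the groups compared, 1 with a mean of at least 5 TPM or median-ratio scaling, 4 with the replicate block, and 0 to 2 with a library left out. FOSB and EGR2 are not tested at a mean of at least 5 TPM. The counts under TCP, from palbociclib to the combination and for the interaction stayed at 0 in every alternative run, and the block changed no member call beyond those of EGR1 and EGR2 given above. In these fits 1 group can hold a single library, whose spread is taken to be that of the others. Of the member fold changes, FOS under palbociclib (-0.01) was 0.13 with quantile normalization and 0.16 with median-ratio scaling, and DUSP1 from TCP to the combination (-0.01) was 0.10 and 0.17. Values near 0 also changed sign with a library left out. FOS ranged from -0.40 to 0.38 under palbociclib, -0.026 to 0.75 in the combination and -0.67 to 0.11 for the interaction. DUSP1 ranged from -0.020 to 0.51 under TCP, -0.034 to 0.50 in the combination, -0.62 to 0.22 from palbociclib to the combination and -0.14 to 0.11 from TCP to it. IER3 ranged from -0.19 to 0.95 under palbociclib, -0.038 to 1.10 from palbociclib to the combination and -0.66 to 0.47 for the interaction. JUNB ranged from -0.036 to 0.22 under palbociclib and -0.12 to 0.14 from there to the combination. Under TCP, JUN ranged from -0.47 to 0.053, JUND from -0.17 to 0.017 and FOSB from -0.50 to 0.046. EGR2 under palbociclib ranged from -0.50 to 0.25, and for the interaction EGR1 ranged from -0.39 to 0.64 and IER2 from -0.023 to 0.25. The cause of these changes was not tested. Over all genes, the 8 calls under TCP became 20 with the replicate block and 0 with only the groups compared (0 to 1 with any library left out), the 71 from palbociclib to the combination became 114 and 10 (1 to 52 with a library left out: 1 without each palbociclib or combination library and 31 without either DMSO library), and the 1288 under palbociclib became 787 without palbociclib replicate 2.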
